A study of Rattus norvegicus with 6 samples.

Results

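Genes that mark fibroblasts were compared between rat dorsal root ganglion cultures kept in control medium and in high glucose. The set was defined by a fixed list of 9 symbols: Islr, Clec3b, Dpt, Mfap4, Pi16, Ccdc80, Cd34, Thy1 and Cygb. Of these, 8 were measured among the 16551 genes of the mRNA table, and Mfap4 is not analysed here. The list was chosen by a reading of this same comparison, in which Islr and Clec3b were among the largest rises, so the differences between groups in its members are given as a description, without p-values.

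Primary cells were dissociated from lumbar and sacral dorsal root ganglia, which hold the cell bodies of sensory neurons with their glia, vessels and connective tissue. The control cultures (3 samples) spent 48 h in DMEM. The high-glucose medium held 45 mmol/L of glucose and was also given for 48 h. The 3 samples titled DM were taken as its cultures, a reading that no label spells out. The strain, age and sex of the rats, the glucose level of the control medium and any osmotic control were not given in the sources used here. Nor was it given whether the samples of a group came from separate cultures or animals, or whether a fixation step in the growth protocol applied to the sequenced cells, so the spread between samples may be technical. The mRNA table held between 28780612 and 33108451 reads per sample.

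Fibroblasts build and maintain the collagen-rich matrix around nerve fibres and ganglia. In peripheral nerve they form an outer epineurial layer, a barrier-like perineurial sheath and a population inside the nerve bundles, the endoneurial fibroblasts. When activated by tension or growth factors they can turn into contractile myofibroblasts, which make smooth muscle actin. Of the listed genes, Pi16 and Dpt are known as markers of fibroblasts that recur across many organs, and Pi16 in particular marks cells of the sheaths of nerve and ganglion. Thy1 and Cd34 are surface markers of connective tissue cells that other cell types carry too.

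The 8 genes did not move as one group. Islr and Clec3b were more than 10-fold higher in high glucose, Dpt was 2.99-fold higher, and Cygb and Pi16 were 1.79-fold and 1.59-fold higher. Thy1 and Ccdc80, the pair with the most reads, were 1.11-fold and 1.21-fold lower, and Cd34 was 1.95-fold lower. The direction of Ccdc80 turned after quantile normalization, which forces all samples to the same distribution (log2 fold change of 0.17 in place of -0.28). There a gene's value follows from its rank in the sample alone. The median log2 fold change of the 8 was 0.76, beside 0.01 over all genes. In limma's test across the whole table at an adjusted p under 0.05, 5 of the 8 were called higher, where 24.9% of all genes were, and 3 were called lower, where 25.5% were. No gene of the 8 had overlapping groups, with high glucose above control in 5 and below it in 3, beside 28.7% and 28.9% of all genes. Of all calls, 49.4% were higher, and 67.6% when samples were scaled by their total reads alone. Since the list was made with this comparison known, nothing is read from these counts. In bulk RNA, fewer cells of a type and less RNA per cell cannot be told apart.

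**Figure D1:**
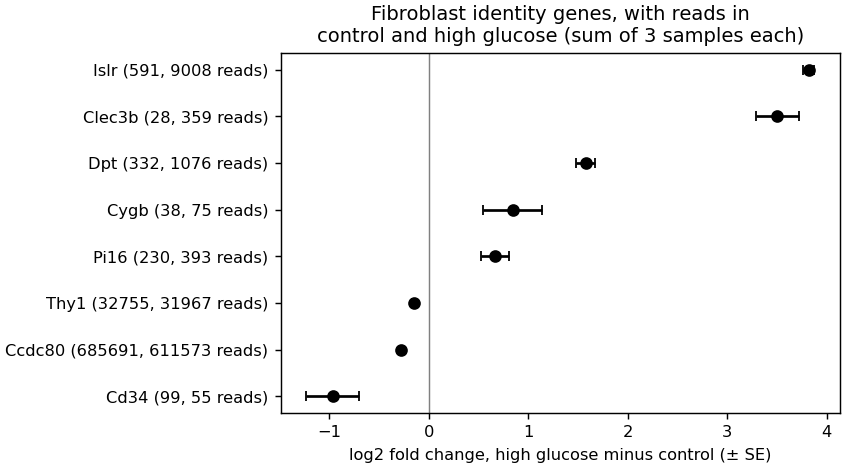
Log2 fold change of each gene (high glucose minus control, point) with its standard error from the limma fit (bar), 3 samples per group; the labels give the reads summed over each group. Islr and Clec3b lie at 3.82 and 3.50, and Cd34 is lowest at -0.96. Ccdc80, at -0.28 here, lies at 0.17 after quantile normalization. With a larger offset, log2(CPM + 2), Clec3b lies at 1.31, and Cd34 and Ccdc80 both lie at -0.28.

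Promoter sequences were read for the listed genes. RefSeq's table for the rat build GRCr8 held 5 of the 9 listed genes (Islr, Dpt, Pi16, Ccdc80 and Cd34), and entries for Clec3b, Mfap4, Thy1 and Cygb were not used here. The 250 bases before the annotated start are shown for the largest rise (Islr, minus strand, chr8:67469259-67469508), for Dpt (plus strand, chr13:79656091-79656340) and for the largest fall (Cd34, plus strand, chr13:109008536-109008785). Each is written 5′ to 3′ along the gene, with capitals marking any of 4 motifs found on either strand. The TATA box, a place where transcription machinery assembles, was searched as TATAAA. The CCAAT box was searched by the letters of its name. The GC box, bound by factors of the Sp family, was searched as GGGCGG. The AP-1 site, bound by factors of the Fos and Jun families, was searched as TGACTCA.
Islr: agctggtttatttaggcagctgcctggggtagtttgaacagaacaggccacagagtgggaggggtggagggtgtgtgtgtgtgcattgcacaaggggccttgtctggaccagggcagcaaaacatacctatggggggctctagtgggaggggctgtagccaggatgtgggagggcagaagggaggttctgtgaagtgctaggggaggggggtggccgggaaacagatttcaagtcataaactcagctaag
Dpt: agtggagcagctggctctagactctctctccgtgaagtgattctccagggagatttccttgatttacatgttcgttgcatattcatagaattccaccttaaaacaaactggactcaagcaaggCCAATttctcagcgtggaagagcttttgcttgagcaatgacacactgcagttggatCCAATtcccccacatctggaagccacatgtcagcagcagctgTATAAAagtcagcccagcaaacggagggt
Cd34: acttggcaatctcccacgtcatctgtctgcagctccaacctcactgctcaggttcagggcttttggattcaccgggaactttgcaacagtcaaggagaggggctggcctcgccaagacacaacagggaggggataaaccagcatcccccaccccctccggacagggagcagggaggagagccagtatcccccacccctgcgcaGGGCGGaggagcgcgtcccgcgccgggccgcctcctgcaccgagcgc

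The Dpt window held a TATA box whose first base lies 29 bases before the start, a motif found in 12.9% of 33469 such windows, and CCAAT boxes at 127 and 71 bases, a motif found in 34.0%. The Cd34 window held a GC box 47 bases before the start, a motif found in 30.5% of windows. The Islr, Pi16 and Ccdc80 windows held none of the 4 motifs, and no window of the 5 held the AP-1 site, which 4.05% of all windows hold. The share of G and C was 56.4% for Islr, 47.2% for Dpt, 54.4% for Pi16, 50.4% for Ccdc80 and 64.8% for Cd34, beside a median of 51.2%. A match is a description of these letters only, and the samples carry no measurement at the promoters.

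Among the surface proteins, Islr (ENSRNOG00000048924), also known as meflin, encodes a protein with immunoglobulin and leucine-rich repeat domains that marks mesenchymal stromal cells and fibroblasts. Its levels on the log2 CPM scale (CPM, reads of a gene per 1000000 reads of the scaled library) were 2.69, 2.87 and 2.66 in control samples 1 to 3 and 6.56, 6.56 and 6.56 in high-glucose samples 1 to 3. All high-glucose samples lay far above all control samples, with 3.69 log2 units between the nearest pair. The reads behind them were 179, 225 and 187 in control and 2838, 2949 and 3221 in high glucose. The log2 fold change was 3.82 ± 0.06 (SE), a 14.1-fold difference, and ranked 20 of 16551 from the top. The SD between control samples was 0.11, close to the 0.10 that counting error alone gives at these reads. In high glucose it was 0.0035, below the counting value of 0.026.

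Thy1 (ENSRNOG00000006604), a small lipid-anchored glycoprotein (CD90) of fibroblasts, neurons and thymocytes, was nearly level. It stood at 8.55, 8.52 and 8.55 log2 CPM in control samples 1 to 3 and at 8.38, 8.40 and 8.38 in high-glucose samples 1 to 3. The groups did not overlap, but the gap between them was 0.11 log2 units. With 32755 reads in control and 31967 in high glucose the spread within groups was small (SD of 0.018 and 0.014), and the log2 fold change was -0.15 ± 0.02. When samples were scaled by their total reads alone, the log2 fold change was -0.04 and no longer passed. That scaling moved the median of all genes from 0.01 to 0.13, so Thy1 lay below the median gene under both.

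Cd34 (ENSRNOG00000045558), a sialomucin of blood progenitors, vascular endothelium and many tissue fibroblasts, was the one scarce gene of the set that was lower in high glucose. Its levels were 0.31, 0.03 and 0.22 log2 CPM in control samples 1 to 3 and -0.55, -1.11 and -0.67 in high-glucose samples 1 to 3. Every high-glucose sample lay below every control sample, on 34, 31 and 34 reads in control and 20, 14 and 21 in high glucose. The log2 fold change was -0.96 ± 0.27, and -0.28 with a larger offset, log2(CPM + 2). As a ratio of reads per scaled library, high glucose over control was 0.514, with an exact 95% interval of 0.362 to 0.721 that covers counting error only.

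The secreted proteins also went in both directions. Clec3b (ENSRNOG00000004540) encodes tetranectin, a C-type lectin-like protein that binds plasminogen and is made by connective tissue cells. It stood at -1.71, -1.56 and -1.49 log2 CPM in control samples 1 to 3 and at 1.85, 2.01 and 1.88 in high-glucose samples 1 to 3. The groups were 3.35 log2 units apart at their nearest. Control levels rested on only 8, 10 and 10 reads, against 108, 126 and 125 in high glucose. The log2 fold change was 3.50 ± 0.22, and the ratio of reads was 11.9 with an exact 95% counting interval of 8.06 to 18.1. With the larger offset it was 1.31.

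Dpt (ENSRNOG00000002947) encodes dermatopontin, a matrix protein that binds decorin and promotes collagen fibril assembly. Its levels were 2.04, 1.88 and 1.84 log2 CPM in control samples 1 to 3 and 3.57, 3.47 and 3.45 in high-glucose samples 1 to 3. All high-glucose samples were higher by at least 1.41 log2 units. Its log2 fold change was 1.58 ± 0.10 on 332 reads in control and 1076 in high glucose.

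Pi16 (ENSRNOG00000000525), a member of the CAP family of cysteine-rich secretory proteins, was modestly higher. It stood at 1.26, 1.53 and 1.35 log2 CPM in control samples 1 to 3 and at 2.19, 2.02 and 1.94 in high-glucose samples 1 to 3. The nearest samples of the groups were 0.40 log2 units apart. The log2 fold change was 0.67 ± 0.14, on 230 control and 393 high-glucose reads, and it was 0.41 with the larger offset.

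Ccdc80 (ENSRNOG00000002052), a matrix protein first described as repressed in transformed cells and linked to fat cell differentiation, had by far the most reads. It stood at 12.92, 12.92 and 12.93 log2 CPM in control samples 1 to 3 and at 12.65, 12.63 and 12.66 in high-glucose samples 1 to 3. Control samples were all above high-glucose samples, by at least 0.26 log2 units. The log2 fold change was -0.28 ± 0.01, and 0.17 after quantile normalization, where it was called higher. Ccdc80 alone made up 93.3% to 95.3% of the summed CPM of the 8 genes, so that sum followed Ccdc80: it was 8122 to 8200.5 CPM in control and 6774 to 6911 in high glucose, although 5 of the 8 genes were higher.

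The remaining gene acts inside the cell. Cygb (ENSRNOG00000011541) encodes cytoglobin, an oxygen-binding globin found in fibroblasts and hepatic stellate cells. Its levels were -1.15, -1.43 and -0.93 log2 CPM in control samples 1 to 3 and -0.29, -0.48 and -0.21 in high-glucose samples 1 to 3. All high-glucose samples were higher, but on 12, 11 and 15 reads against 24, 22 and 29. Cygb's log2 fold change was 0.84 ± 0.29. The call was lost on leaving out control sample 2 (0.72), high-glucose sample 1 (0.83) or high-glucose sample 3 (0.78), and the value was 0.19 with the larger offset. The exact 95% counting interval of its read ratio ran from 1.22 to 2.77 around 1.82.

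**Figure D2:**
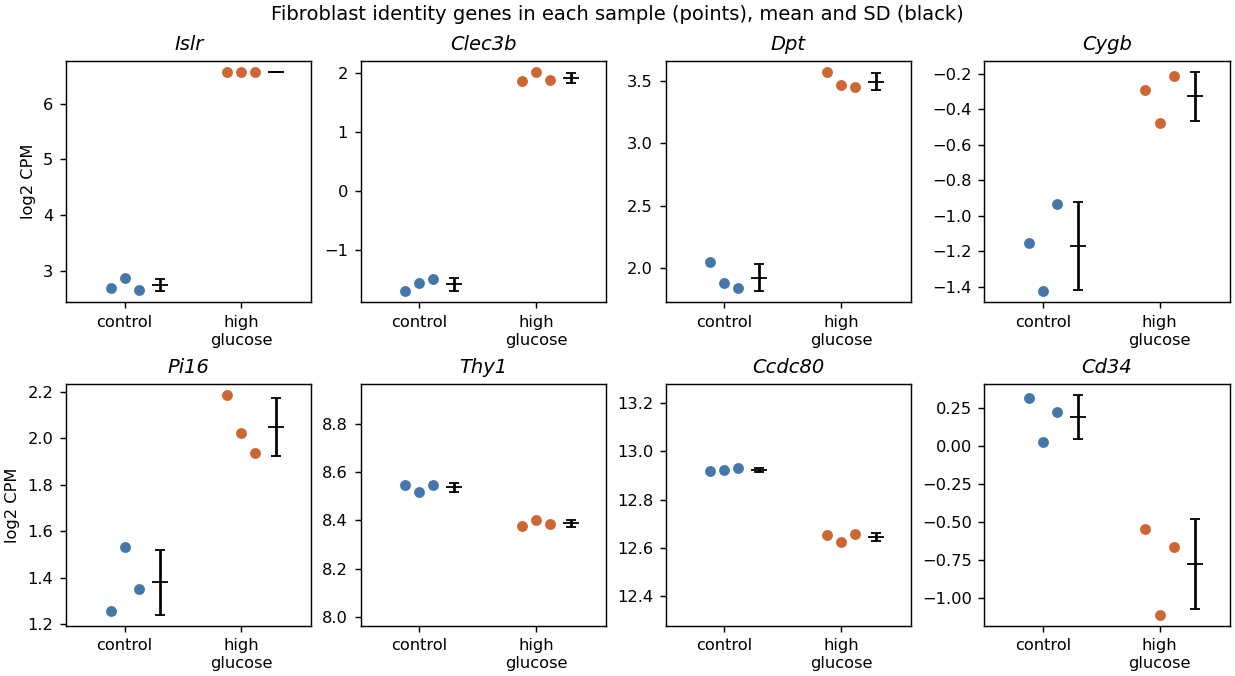
Level of each gene in each of the 6 samples (log2 CPM, points), with the mean and SD of each group of 3 (black); the vertical axes differ between panels, cover at least 1 log2 unit and do not start at 0. The groups do not overlap in any panel, and the gap runs from 0.11 log2 units in Thy1 to 3.69 in Islr.

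Ranked by log2 fold change, the order from the top was Islr, Clec3b, Dpt, Cygb, Pi16, Thy1, Ccdc80 and Cd34. Islr and Clec3b did not differ by more than 2 combined standard errors (0.32 ± 0.22), and neither did Cygb and Pi16 (0.18 ± 0.32). On the deposited values each other gene differed from the next by more than that, with Thy1 and Ccdc80 changing places after quantile normalization (-0.07 and 0.17). Examples are the steps of 0.74 ± 0.31 from Dpt to Cygb and 0.68 ± 0.27 from Ccdc80 to Cd34. The order also depended on the offset. With log2(CPM + 2), Cd34 and Ccdc80 both stood at -0.28, and Clec3b (1.31) was close to Dpt (1.20). Cygb (0.19) then lay below Pi16 (0.41).

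Differences between 2 genes within a sample do not depend on a scaling factor applied to the whole sample, though quantile normalization, which is no single factor, can change them. Taken against Thy1, Islr stood at -5.80 ± 0.13 log2 units in control and at -1.83 ± 0.02 in high glucose (SD, n = 3), a shift of 3.97. Against the same gene, Clec3b shifted by 3.65, Dpt by 1.73, Cygb by 0.99 and Pi16 by 0.82. Cd34 shifted by -0.81 and Ccdc80 by -0.13. In all 7 of these differences the groups did not overlap in the deposited values. After quantile normalization the log2 fold changes of Ccdc80 and Thy1 were 0.17 and -0.07, so their difference changed sign. Such differences show that the genes changed unequally, not which of them stayed level.

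By likeness of the 6 values, each centred on its own mean, the genes nearest to Islr among 12247 of mean log2 CPM at least 0 were Mrgprf (Euclidean distance 0.44), Clec3b (0.46), Gna14 (0.54), Xdh (0.67) and Cnnm1 (0.75). Those nearest to Clec3b were Mrgprf (0.29), Xdh (0.42), Islr (0.46), Tyrp1 (0.49) and Cilp (0.52). Mrgprf encodes a Mas-related receptor, Xdh makes uric acid, and Cilp is a matrix protein of cartilage. Since Islr and Clec3b were both chosen as large rises, nothing is read from their distance. Clec3b, Cnnm1 and Tyrp1 reached the minimum of 0 only through their high-glucose samples. The mean profile of the 8 genes was nearest to Dkk3 (0.078), Srpx2 (0.094), Bmf (0.094), Gas6 (0.11) and Tnfaip8l3 (0.11), which were higher by log2 fold changes of 1.10 to 1.16. With 2 groups, these distances mostly reflect the size of the difference between them.

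Other fibroblast genes, also listed with earlier results known, were tested in the same limma fit, with adjusted p over all genes. Over all genes, 24.9% were called higher and 25.5% lower. Of 22 core fibroblast genes, 19 were measured, of which 11 were higher (57.9%), 6 lower (31.6%) and 2 did not pass. Their median log2 fold change was 0.24. Lum and Dcn, collagen-binding proteoglycans, rose by 2.15 ± 0.03 (adjusted p = 2.96e-15) and 1.23 ± 0.04 (adjusted p = 8.42e-12). Serpinf1, which encodes a secreted inhibitor of vessel growth, fell by 0.59 on the log2 scale. After quantile normalization 2 genes of the list were called lower. Col1a1, a chain of type I collagen, fell by 0.41 ± 0.03 on the deposited values and was not among those 2. Summed over the list, levels were 87596 to 90723 CPM in control and 78072 to 82103 in high glucose, although 11 of the 19 genes were higher. Col1a1 made up 38.4% to 39.7% of that sum in control and Fn1, the fibronectin gene, 20.5% to 20.8%. The log2 fold change of Fn1 was -0.47 ± 0.03, and 0 after quantile normalization. That setting sets each value by its rank within the sample, so a gene of equal rank in all samples gets 0 whatever its level.

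Dpt and Pi16 are used to mark universal and adventitial fibroblasts, the recurring populations of connective tissue and vessel walls. Of 19 further markers of that kind, 17 were measured, of which 8 were higher (47.1%), 6 lower (35.3%) and 3 did not pass (median of 0.09). Of all genes, 24.9% were higher and 25.5% lower. Igfbp6, a carrier of insulin-like growth factor, rose by 1.37 ± 0.03, Has1, a hyaluronan synthase, by 1.63 ± 0.11, and Penk, the enkephalin precursor, by 1.33 ± 0.04. Col15a1, a basement membrane collagen that marks universal fibroblasts as Dpt does, went the other way (-1.53 ± 0.25, adjusted p = 0.000168), as did Cd55, a complement regulator (-1.39 ± 0.21, and -0.57 with the larger offset), and Mfap5, a microfibril protein (-0.94 ± 0.04). Dpp4, which is known to mark the same cells as Pi16, was not called (-0.08 ± 0.64), on 7 control and 8 high-glucose reads.

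Genes of endoneurial fibroblasts were mostly higher, with 6 of 10 higher (60%), 1 lower (10%), 3 not passed and a median of 0.89. Of all genes, 24.9% were higher and 25.5% lower. The list is scarce, with a median level of 0.28 log2 CPM in control. Abca8a, a lipid transporter, rose by 2.03 ± 0.08 (adjusted p = 1.0e-10) and Wif1, a Wnt inhibitor, by 1.02 ± 0.24 (adjusted p = 0.0027; 0.41 with the larger offset), while the transcription factor Sox9 fell by 0.87. Myofibroblast genes were mostly lower: 14 of 19 were lower (73.7%) and 3 higher (15.8%), 2 were not called, and their median was -0.40. Tnc, tenascin C, was 3.73-fold lower (adjusted p = 1.35e-16), and the smooth muscle actins Actg2 and Acta2 were 3.62-fold and 2.35-fold lower. The summed level of the myofibroblast list was 36349 to 36368 CPM in control and 22628 to 22998 in high glucose.

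**Figure D3:**
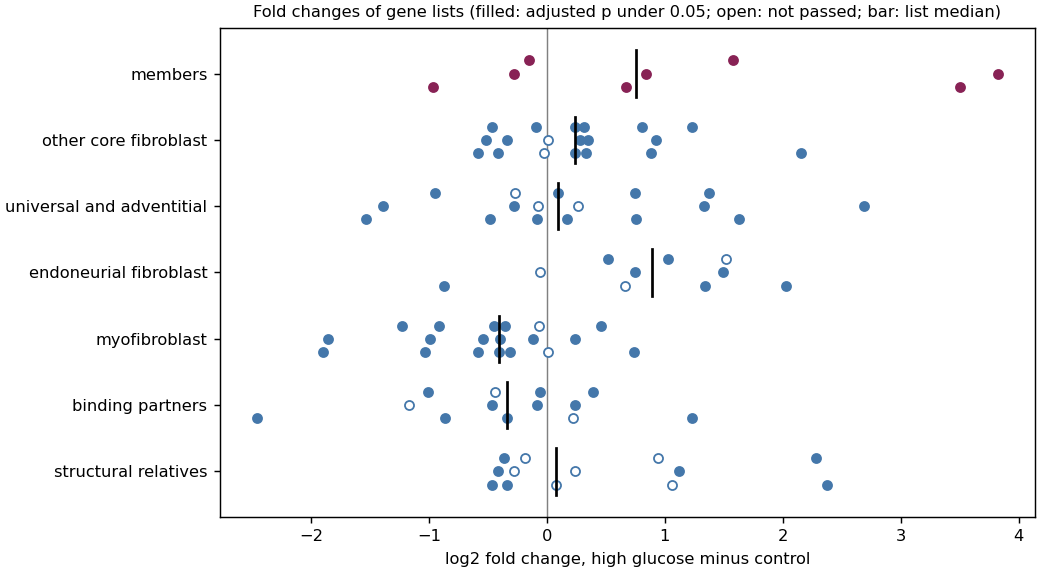
Log2 fold change (high glucose minus control) of each measured gene, by list; filled points passed limma's test at an adjusted p under 0.05, open points did not, and the black bars are list medians. The 8 listed genes spread from -0.96 to 3.82, and the myofibroblast median lies at -0.40; 6 core fibroblast genes were called lower here and 2 after quantile normalization, where Ccdc80 lies at 0.17.

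Of 16 genes for proteins related in structure to the listed ones, 13 were measured, of which 3 were higher (23.1%), 4 lower (30.8%) and 6 did not pass. These shares are near those of all genes (24.9% and 25.5%). In the CAP family of Pi16, Crispld2 rose by 2.37 ± 0.03 (adjusted p = 3.82e-15) and Pi15, named for its kinship to Pi16 after its value was seen, rose by 2.28 ± 0.26 on 34 reads against 183 (0.71 with the larger offset). Glipr1 of that family fell by 0.36 on the log2 scale. Among the sushi-repeat relatives of Ccdc80, Srpx2 was 2.18-fold higher and Srpx 1.34-fold lower. Islr2, the neuronal relative of Islr, was not called, at 0.08 ± 0.26 (adjusted p = 0.822) on 86 control and 96 high-glucose reads.

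Known binding partners of the listed proteins were lower in 7 of 13 measured cases (53.8%), higher in 3 (23.1%) and not passed in 3, with a median of -0.34. Of all genes, 25.5% were lower and 24.9% higher. Dcn, which binds dermatopontin and is counted in the core list too, was among the rises. Fbn2 and Eln, components of elastic fibres, were 5.49-fold and 1.82-fold lower (adjusted p = 1.1e-12 and 1.58e-11), and Itgb3, a subunit of an integrin that binds Thy1, was 2.01-fold lower. Plg, the plasminogen that tetranectin binds, was not called (0.22 ± 0.38), on 29 control and 37 high-glucose reads.

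Since several of the listed genes are not specific to fibroblasts, markers of other cells were read in the same samples. Beside their counts stand the shares of all genes, 24.9% higher and 25.5% lower. Near those shares were the mural rises (27.3%), the perineurial falls (25%) and the macrophage and blood falls (27.3%). Above them were the neuronal (50%), mural (54.5%) and glial falls (90.9%). For Cd34, 11 of 16 endothelial markers were measured: 1 was lower (Ptprb, -3.05 ± 0.12), 1 was higher (Erg, 0.13 ± 0.05, adjusted p = 0.044, and up to 0.125 over the alternatives) and 9 did not pass. Their summed level was 97.0 to 100.8 CPM in control and 83.4 to 84.7 in high glucose. Ptprb alone went from 14.7 ± 0.65 to 1.80 ± 0.29 CPM (SD, n = 3), a difference close in size to that between the sums. Cdh5, which defines endothelium, had 18 control and 12 high-glucose reads, and Kdr, a receptor for VEGF, had 5 and 11. Ptprc, which defines blood cells, was not called (-0.18 ± 0.21), on 155 control and 146 high-glucose reads. For Thy1, 16 neuronal markers were measured, of which 8 were lower, 1 was higher and 7 did not pass. Their sum was 123.4 to 128.4 CPM in control and 83.7 to 86.7 in high glucose. Uchl1 made up 45.6% to 47.9% of the neuronal sum in control and 55.0% to 57.3% in high glucose. Falls on more reads were Stmn2 (1093 control and 259 high-glucose reads), Prph (504 and 85) and Gap43 (481 and 82). Elavl4, a defining neuronal marker, was lower on 63 and 7. Snap25, of the synaptic release machinery, had 27 control and 2 high-glucose reads, and Pou4f1, a sensory neuron factor that did not pass, 7 and 1. Rbfox3, a marker of mature neurons, had 6 and 9 and did not pass. Syt1, a calcium sensor of synaptic release, was the 1 higher, 1.84-fold on 669 control and 1332 high-glucose reads (adjusted p = 1.54e-07). Glial markers were lower in 10 of 11 cases, higher in none and did not pass in 1, with sums of 590.3 to 617.3 CPM in control and 378.2 to 413.2 in high glucose. Of 11 mural markers, 6 were lower, 3 higher and 2 did not pass. The rises, on the log2 scale, were 1.85 for Kcnj8 (1.21 with the larger offset), 0.82 for Abcc9 and 0.76 for Notch3. Among the falls were the defining mural markers Myh11 (-1.51), Cspg4 (-1.33) and Rgs5 (-1.33, and -0.42 with the larger offset). The sum of the mural markers was 8600 to 8719 CPM in control, of which Acta2, also in the myofibroblast list, made up 77.8% to 78.0%, and 3729 to 3832 in high glucose. Macrophage and blood markers were higher in 2 of 11 cases (Csf1r by 0.68 and Cd14 by 0.63 on the log2 scale), lower in 3 (Adgre1 on 165 control and 72 high-glucose reads, C1qa on 68 and 22, C1qb on 51 and 27) and not passed in 6, with sums of 31.9 to 32.9 and 36.1 to 37.7 CPM. Cd14 made up 30.8% to 32.6% of that sum in control and 42.3% to 42.8% in high glucose. Of 8 perineurial markers, 1 was higher, 2 were lower and 5 did not pass, and their sums of 499.4 to 518.4 and 478.1 to 510.5 CPM overlapped. Tjp1, a tight junction protein, made up 78.6% to 79.8% of the perineurial sum in control. No measured marker of these lists was at 0 reads in a whole group, and the part of these cells in the values of the listed genes was not tested.

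**Figure D4:**
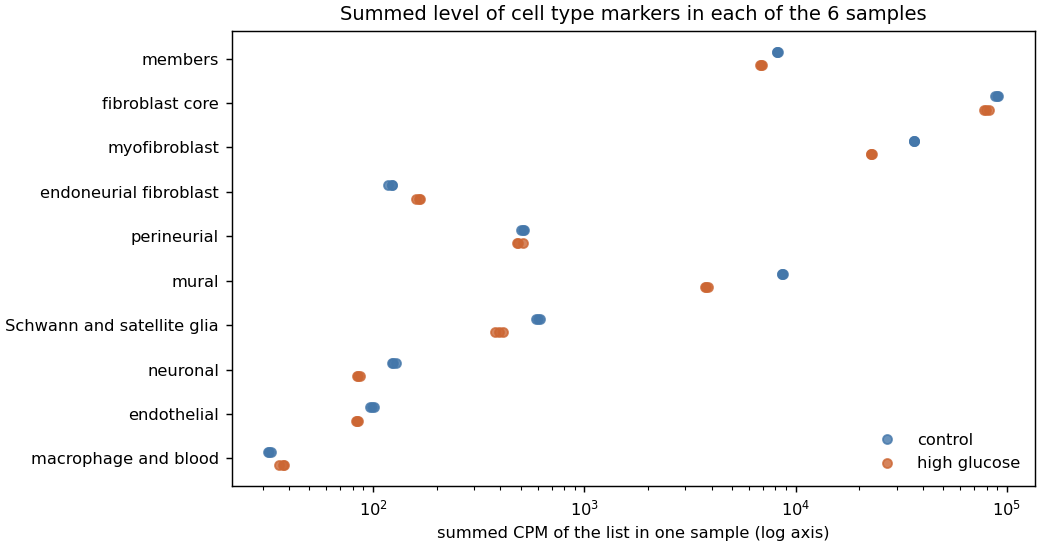
Summed CPM of each marker list in each of the 6 samples (log axis; blue control, orange high glucose), over the measured genes of each list. The fibroblast core list sums to at least 78072 CPM in each sample, and the neuronal and endothelial lists to at most 128.4 and 100.8. Each list holds different genes and a few carry most of its sum, so the sums do not compare amounts of cells. In control, Col1a1 made up 38.4% to 39.7% of the core sum and Uchl1 45.6% to 47.9% of the neuronal sum.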

How the data were processed

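The deposited mRNA table gives log2 CPM values per sample, which its name calls voom-normalized. The tools HISAT2 2.1.0, fastp 0.19.4 and featureCounts 1.6.0 and the build Rnor_6.0 come from the submitters' processing notes; their settings, the annotation version and the strand of counting are not given in the sources used here. Whole reads were recovered from the deposited log2 values: 100% came within 0.01 of a whole number after removing the offset of 0.5 read. Samples were grouped by title. Genes were tested with limma 3.58.1 (R 4.3.3) on the deposited values, group as the only term, mean-variance trend, two-sided, Benjamini-Hochberg adjustment over all 16551 genes, threshold 0.05; the fit was tested on simulated data. A symbol on several rows was taken from the row with the highest mean. The members and the 12 other lists, and the rule for naming genes, were chosen with earlier results of these data known. Per list, that rule allows defining markers and the 3 largest rises and falls past the threshold at a mean log2 CPM of at least 0. Only some of these are named. Pi15, Dpp4, Islr2, Plg, C1qa and C1qb, outside that rule, were added after their values were seen. Uchl1, also outside it, is named for its share of the neuronal sum. Samples of equal replicate number were no more alike than others (correlation of deviations -0.092 to 0.025 for equal numbers, -0.071 to 0.116 for others). With 3 samples per group, this does not show whether equal numbers share a culture or animal. The separately scaled lncRNA table was not used. Plots used Python 3.11.15 and matplotlib 3.10.9.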

Additional observations from a re-analysis of the deposited data

How the results depend on the processing

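Of 13 alternatives, tried on each listed gene that the setting kept, directions held for all 8 genes except Ccdc80, whose log2 fold change was 0.17 after quantile normalization. Counts of listed genes called ran from 4 to 6 higher and 2 to 3 lower. With 1 sample left out, 4 to 5 were higher and 3 lower. Leaving out genes of mean log2 CPM under 0 removed Cd34 and Cygb. With a replicate block, 5 were higher and 3 lower, and 3968 and 4084 of all genes were, beside 4126 and 4228 without it. Scaling by total reads alone gave 5932 higher and 2847 lower, so 67.6% of all calls were higher in place of 49.4%. In the other lists, the neuronal falls went from 8 to 5 without scarce genes, and the endothelial rise was lost in 6 of 13 alternatives. Depth limits Clec3b in control (28 reads), Cd34 and Cygb, where the log2 fold change moved with the larger offset, log2(CPM + 2). With that offset Islr moved too, from 3.82 to 3.47, Dpt from 1.58 to 1.20 and Pi16 from 0.67 to 0.41. Ccdc80 and Thy1 stayed at -0.28 and -0.15.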
